A study of Homo sapiens with 160 samples.

Results

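The genes described here are the integrin subunits and the laminin chains. Their expression was followed in a human bronchial epithelial cell line under a glucocorticoid, an adrenoceptor agonist and a muscarinic agonist. They were taken by gene symbol: ITGA or ITGB followed by letters or digits, and LAMA, LAMB or LAMC followed by a digit. This gave 43 of the 29273 genes in the deposited table. Of these, 35 reached a value of 1 in 5 or more libraries and were tested, among 14827 genes tested in all. The 35 were 20 integrin subunits, 10 laminin chains and 5 genes that the pattern takes but that encode no integrin subunit.

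Integrins are receptors made of an alpha and a beta chain that span the membrane and tie the extracellular matrix to the actin or keratin skeleton. Laminins are secreted trimers of an alpha, a beta and a gamma chain and are the main cell-binding proteins of basement membranes. In the airway, basal epithelial cells hold to laminin-332, which holds the LAMA3 and LAMB3 chains, through integrin alpha-6 beta-4 in hemidesmosomes and through integrin alpha-3 beta-1.

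BEAS-2B, a line of immortalised epithelial cells from human bronchus, was grown to confluence, left overnight without serum and treated for 1, 2, 6 or 18 h. The treatments were mometasone furoate (100 nM), a glucocorticoid; indacaterol (100 nM), a long-acting beta-2 adrenoceptor agonist; carbachol (10 uM), a muscarinic agonist; the 3 pairs; all 3 together; and vehicle. With 5 replicates planned for each of the 32 groups, 150 libraries were compared: 24 groups of 5, 6 groups of 4, and 2 groups of 3, which were mometasone alone and all 3 agents at 18 h. All are 1 wild-type line, so nothing here separates the line from airway epithelium in general.

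The deposited values are expression per gene that the authors call TPM, a scale set per transcript length, although the columns sum to between 847289 and 1498421. Read depth is unknown, so precision rests on the spread between libraries. Mitochondrial genes held 5.88% to 28.3% of the summed values, with 6 libraries over 20%, all labelled replicate 1. The labels do not say whether replicates came from separate cultures, so p-values measure the spread between these libraries, which may be technical. In these bulk libraries fewer cells of a type and less RNA per cell cannot be told apart.

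The cells' own markers were mixed. KRT8, KRT18 and KRT17 had medians of 351, 446 and 518 in the 19 vehicle libraries, but EPCAM was at 0.29 and KRT19 at 0.43. The mesenchymal markers VIM, COL1A1 and FN1 were at 1636, 681 and 594. The others were lower, with PDGFRB at 107, CDH2 at 41.7, TAGLN at 35.1, ACTA2 at 8.19 and COL1A2 at 1.62. CD3E, PF4 and PPBP were at 0, and no leukocyte, endothelial or platelet marker had a vehicle median above 1.65.

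Promoter windows were available from RefSeq (GRCh38.p14) for 30 of the 43 genes. Those of 4 genes are printed because their expression carries the results below: ITGA10 and ITGA1, which had the largest changes, and LAMA3 and LAMB3, 2 chains of the same trimer that moved oppositely with mometasone. Each window runs from 250 bases before the annotated start to 50 after it, 5′ to 3′ on the gene's strand. The windows are chr1:145910001-145910300 (minus strand) for ITGA10, chr5:52787666-52787965 (plus) for ITGA1, chr18:23872770-23873069 (plus) for LAMA3 and chr1:209652376-209652675 (minus) for LAMB3. LAMB3 has 3 windows in the table and the most upstream is shown. The LAMA3 window is at an internal start, 183577 bases inside the gene's outermost start in GENCODE 29, and those of ITGA10, LAMB3 and ITGA1 lie 139, 41 and 20 bases inside theirs. The files do not say which start these cells use.
ITGA10: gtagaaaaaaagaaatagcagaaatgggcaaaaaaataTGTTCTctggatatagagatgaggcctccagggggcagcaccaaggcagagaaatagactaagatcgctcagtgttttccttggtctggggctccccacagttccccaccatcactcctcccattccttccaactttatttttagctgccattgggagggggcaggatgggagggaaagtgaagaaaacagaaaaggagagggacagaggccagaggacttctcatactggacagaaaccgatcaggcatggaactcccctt
ITGA1: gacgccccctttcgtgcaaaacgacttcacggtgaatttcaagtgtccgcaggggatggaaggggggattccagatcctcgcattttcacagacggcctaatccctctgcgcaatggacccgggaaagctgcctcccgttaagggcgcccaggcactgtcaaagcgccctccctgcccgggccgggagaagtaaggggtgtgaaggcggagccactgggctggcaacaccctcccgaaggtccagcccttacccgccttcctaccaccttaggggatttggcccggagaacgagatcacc
LAMA3: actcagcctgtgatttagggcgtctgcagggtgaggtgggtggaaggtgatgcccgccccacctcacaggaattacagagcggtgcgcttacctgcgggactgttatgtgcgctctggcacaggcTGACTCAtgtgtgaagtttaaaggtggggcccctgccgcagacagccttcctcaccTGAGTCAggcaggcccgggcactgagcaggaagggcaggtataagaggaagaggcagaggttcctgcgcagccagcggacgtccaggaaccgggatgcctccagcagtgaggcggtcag
LAMB3: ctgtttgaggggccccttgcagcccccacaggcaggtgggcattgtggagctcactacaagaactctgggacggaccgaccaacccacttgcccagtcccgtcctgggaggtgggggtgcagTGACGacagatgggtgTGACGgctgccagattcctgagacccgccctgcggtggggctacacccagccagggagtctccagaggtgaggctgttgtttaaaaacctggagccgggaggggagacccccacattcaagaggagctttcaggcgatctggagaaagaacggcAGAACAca

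Capitals mark letters matching 3 short motifs searched on both strands. They are the glucocorticoid response element half-site AGAACA, which reads TGTTCT on the other strand, the cyclic AMP response element half-site TGACG, and the AP-1 site TGANTCA. Counted from the start that defines each window, ITGA10 has AGAACA at position -212, LAMA3 has TGANTCA at -125 and -69, and LAMB3 has TGACG at -128 and -112 and AGAACA at 42. The ITGA1 window has none of them. AGAACA occurs in 14.8% of all 35116 windows of this length, TGACG in 24.6% and TGANTCA in 7.71%. Among the 30 genes with a window, 4 had AGAACA, 8 had TGACG and 3 had TGANTCA. The full glucocorticoid response element AGNACANNNTGTNCT, which contains the half-site, was in 0 of the 30 and in 0.0655% of all windows. A match is a run of letters and says nothing of binding.

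In vehicle the receptor set was dominated by a few subunits. ITGA3, the alpha chain of the laminin receptor alpha-3 beta-1, had the highest median, 387 (range 228 to 518, n = 19). ITGB1, the beta chain shared by most integrins, followed at 337, and these 2 ranges overlapped widely. Next among the subunits came ITGB4 at 69.7, ITGB5 at 60.7, ITGA7 at 49.5, ITGAE at 46.6 and ITGA6 at 35.6, all with overlapping ranges. Of these, ITGAE encodes a leukocyte alpha chain. ITGA5, the fibronectin receptor's alpha chain, had a median of 24.7 and ITGAV, which pairs with several beta chains to bind RGD ligands, 18.8.

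The collagen receptors were lower. ITGA1, alpha chain of the collagen and laminin receptor alpha-1 beta-1, had a median of 5.10, ITGA11 of 0.93 and ITGA10 of 0.38. ITGA2, the remaining collagen-binding alpha chain, did not pass the filter. Others below it were ITGA8, ITGAM, ITGAX, ITGB2, ITGB6, LAMB4 and LAMC3, with means over the 150 libraries of at most 0.38. ITGAM, ITGAX and ITGB2 encode leukocyte integrins, and ITGB6 the epithelial subunit that activates TGF-beta with ITGAV.

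Among the laminins, LAMB2 was highest at 298, with LAMB1 at 77.8 and LAMC1 at 77.3 and ranges of these 2 that overlapped. LAMA5 had a median of 26.9 and LAMA3 of 13.3. LAMB3 was lower still, at 5.14. By median level the alpha-5, beta-2 and gamma-1 chains were thus the most abundant of their kinds.

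**Figure D1:**
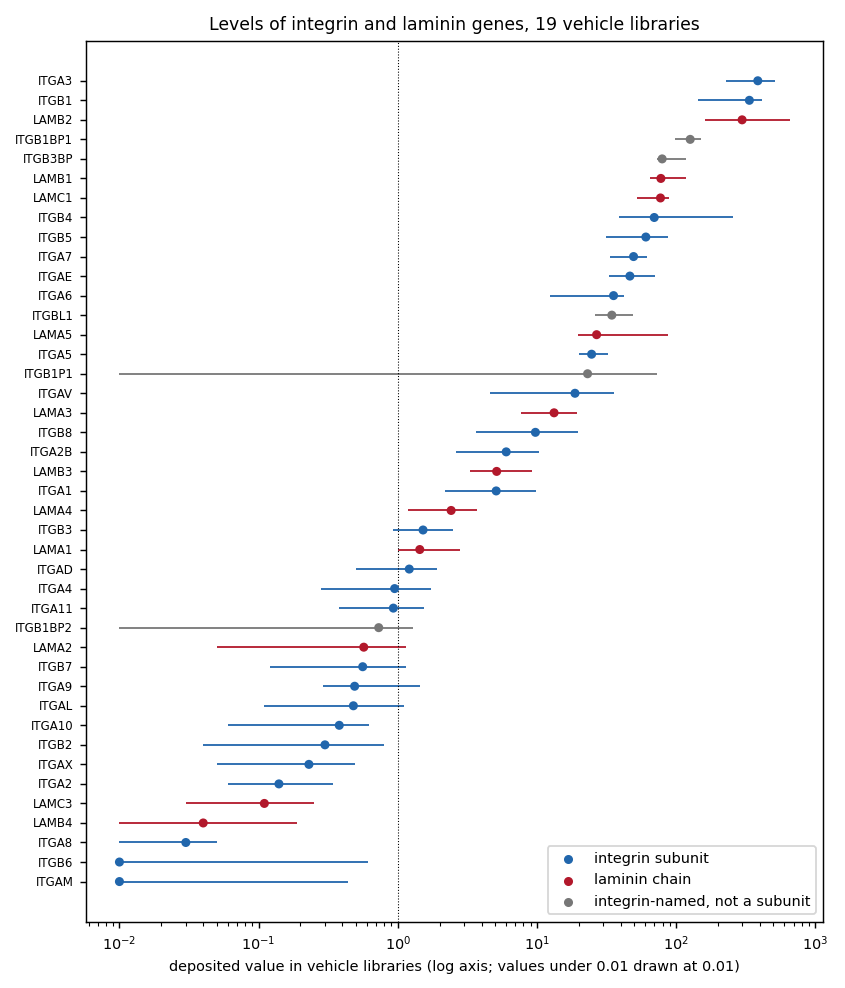
Vehicle values of 42 genes (x axis, deposited value on a log axis; points are medians and lines ranges over 19 libraries). ITGA3, ITGB1 and LAMB2 lead, and ITGA10 lies at 0.38, below the dotted line at 1.

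Libraries with the same treatment and time also differed among themselves, and some of these genes differed more than most. The SD within groups on the log2(value + 1) scale had a median of 0.31 over the 35 genes and 0.29 over all 14827. It was 0.75 for LAMA5, 0.75 for ITGAV, 0.74 for ITGB4, 0.60 for ITGA6 and 0.60 for LAMB2. For ITGB1P1, a pseudogene almost identical to ITGB1 whose reads cannot be separated with certainty, it was 2.50.

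These deviations went with the replicate number in the labels. ITGB4 had a median of 206 over the 29 libraries numbered 5 and 149 over the 26 numbered 1, but 70.1 to 76.4 over those numbered 2, 3 or 4. LAMA5 followed the same order, at 70.5, 53.6 and 24.7 to 26.9. ITGAV went the other way, at 7.52 in libraries numbered 5, 15.6 in those numbered 1 and 20.5 to 31.2 in the rest, and so did ITGA6, at 14.2, 23.9 and 34.3 to 38.5. The number accounted for 84.9% of the within-group variance of ITGAV, 83.2% of ITGA6, 80.3% of ITGB1, 78.4% of ITGB4 and 77.3% of LAMA5, but 41.6% of ITGA5 and 10.5% of ITGA10. The median mitochondrial share was 13.1% in libraries numbered 5 and 14.0% in those numbered 1, against 8.81% to 10.4% in the others, and its part in this was not tested. The labels do not say what the number stands for.

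**Figure D2:**
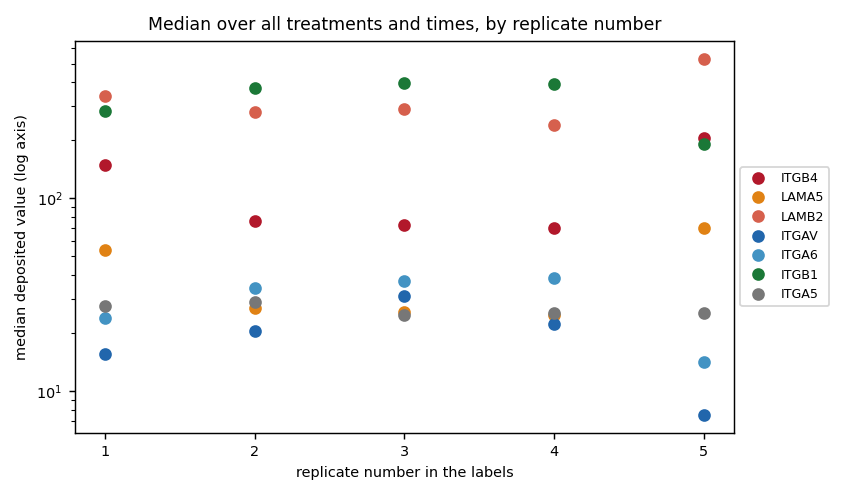
Median deposited value (y axis, log) of 7 genes over all treatments and times, by replicate number (x axis). ITGB4, LAMA5 and LAMB2 are highest and ITGAV, ITGA6 and ITGB1 lowest in libraries numbered 5, while ITGA5 stays between 24.84 and 28.96.

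Each agent's effect was estimated as the mean of its 4 comparisons, with against without the agent on the backgrounds of vehicle and of the other agents, from 1 limma model on log2(value + 1). A gene was called at a limma adjusted p below 0.05 over all genes tested. With mometasone, 0 of 35 genes were called at 1 h, by limma and also at an unadjusted p below 0.05, where 2.64% of all genes were called. At 2 h 3 were called against a background of 8.58%, at 6 h 8 (6 higher, 2 lower) against 33.0%, and at 18 h 16 (5 higher, 11 lower) against 31.5%. As a share of the 35, 8.57%, 22.9% and 45.7% were called at 2, 6 and 18 h, at the background at 2 h, below it at 6 h and above it at 18 h. The 2 h count was 5 without the libraries over 20% mitochondrial RNA, where 1272 genes in all were called, and the 18 h count was 10 without replicate 2 and 10 without replicate 3, where 3241 and 3789 genes in all were called, against 4668 with them. Over the 4 times 17 genes were called at least once, 48.6% of the 35 beside 46.1% of all genes. The median log2 change of the 35 was 0.04 at 6 h and -0.11 at 18 h, beside 0.02 and 0.05 over all genes.

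At 18 h, 6 of the 10 laminin chains tested were lower and 1 was higher, with a median of -0.30. Of the 20 integrin subunits, 4 were lower and 3 higher, with a median of -0.06. Of all 14827 genes tested, 2052 were lower and 2616 higher at that time, so 31.5% were called. The summed epithelial markers were also lower with mometasone at 18 h, at 364 to 712 (n = 14) against 1000 to 1662 without it (n = 18), mostly through keratins, with 5 of 8 tested markers lower and 2 higher. The mesenchymal sums overlapped, at 2275 to 3429 with mometasone and 2630 to 3452 without it. The leukocyte sum was 2.34 to 6.77 with mometasone and 2.22 to 5.35 without, and all endothelial and platelet sums were at most 1.13. The part of these marker levels in the integrin and laminin changes was not tested.

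**Figure D3:**
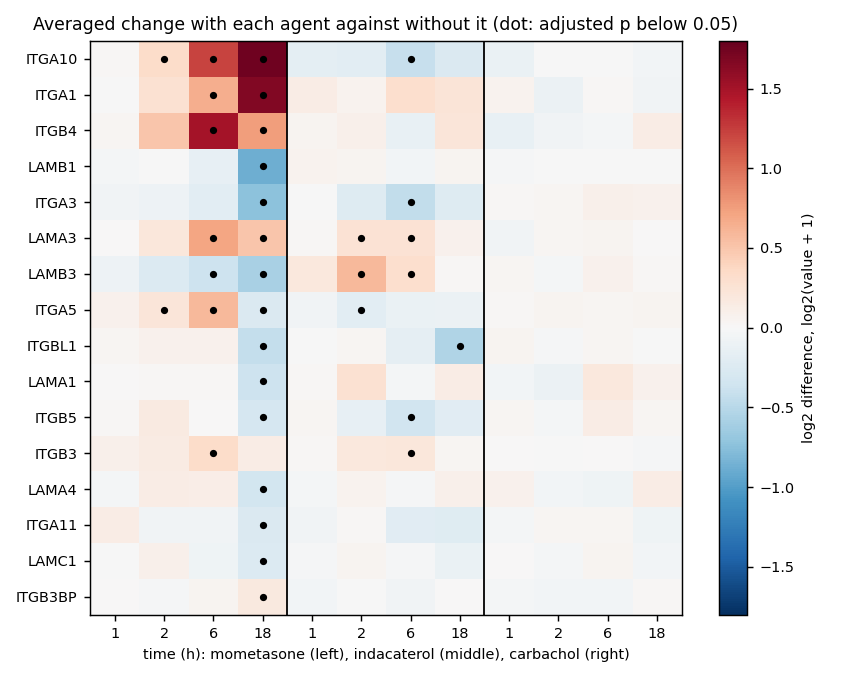
Averaged log2 change of 16 called genes (rows, by largest change) for each agent and time (columns). Red is higher and blue lower with the agent, and a dot marks a limma adjusted p below 0.05. ITGA10, ITGA1 and ITGB4 carry the largest rises with mometasone, the laminin chains LAMB1 and LAMB3 are lower, and no carbachol column has a dot.

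Among the collagen receptors, ITGA10 (alpha-10, paired with beta-1 and best known from cartilage) had the largest change of the family. It reached 1 in 37 of 72 libraries with mometasone and in 0 of 78 without it, so it passed the filter on low values only through the libraries where it was higher, and as a tested gene it had to differ. It rose with mometasone by 0.34, 1.22 and 1.75 on the log2 scale at 2, 6 and 18 h (SE 0.08, 0.08 and 0.09), with limma adjusted p-values of 0.00155, 4.34e-27 and 2.44e-35. At 18 h mometasone alone gave 4.21, 5.31 and 3.66, against 0.29, 0.50, 0.27 and 0.39 in vehicle. At 6 h mometasone alone gave 2.70, 3.47, 3.71, 2.91 and 1.04, against 0.20, 0.29, 0.06, 0.61 and 0.14 in vehicle. The groups were apart at both times. Over all 4 backgrounds at 18 h the values were 1.69 to 5.31 with mometasone (median 3.77, n = 14) and 0.07 to 0.65 without it (median 0.28, n = 18), again apart. Because the added 1 is large beside values this low, the log2 change understates the ratio: with 0.1 added it was 1.03 at 2 h, 2.54 at 6 h and 3.14 at 18 h. The gene lies at chr1:145891208-145910189 on the minus strand (GENCODE 29, GRCh38).

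ITGA1 rose more slowly, by 0.66 at 6 h (SE 0.17, limma adjusted p = 0.000868) and by 1.67 at 18 h (SE 0.19, 4.15e-13). At 18 h mometasone alone gave 18.9, 22.8 and 19.4, against 7.05, 8.24, 5.2 and 2.49 in vehicle, with no overlap. Over all backgrounds the 18 h ranges were 7.16 to 40.4 with mometasone (median 21.1) and 2.02 to 9.26 without it (median 6.67), which overlap. All 4 backgrounds were called at 18 h and 0 of 4 at 6 h.

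ITGA1 lies at chr5:52787896-52959210 on the plus strand (GENCODE 29), and PELO, a ribosome rescue factor gene, overlaps it on the same strand over 16107 bases. The sources used here give neither the use of strand nor how shared reads were assigned. PELO, with a mean of 7.68, was higher with mometasone by 0.37, 0.47, 0.36 and 0.41 at 1, 2, 6 and 18 h, whereas the averaged change of ITGA1 was 0.00 at 1 h. ITGA11, the fibrillar collagen receptor, was lower at 18 h by the test, at -0.26 (limma adjusted p = 0.0187), but not without replicate 3 (0.10) or 4 (0.0707). With 0.1 added its change was -0.57.

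Among the laminin receptors, ITGB4, the hemidesmosomal beta-4 chain that binds plectin, rose by 1.5 at 6 h (SE 0.23, limma adjusted p = 2.19e-08). At 6 h mometasone alone gave 202, 253, 172, 131 and 424, against 69.7, 52.2, 65.1, 48.9 and 132 in vehicle. The highest vehicle library, numbered 5, overlapped the lowest mometasone library, and the ranges over all backgrounds were 113 to 424 with mometasone and 45.1 to 144 without it. All 4 backgrounds were called at 6 h. Against vehicle alone the change was 1.65 (adjusted p = 0.00804), which was lost without replicate 2 (0.118).

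At 18 h the averaged ITGB4 change was 0.76 (SE 0.26, limma adjusted p = 0.0176), with values of 98.8 to 363 with mometasone and 55.6 to 218 without it. This call was lost without replicate 2, 3 or 4, where the adjusted p was 0.103, 0.0580 and 0.0878, and 0 of the 4 single backgrounds were called. Mometasone alone at 18 h had no library numbered 1 or 5, the numbers with the highest ITGB4 values, and vehicle had none numbered 1. The values were 107, 98.8 and 119 in mometasone alone, against 63.4, 64.0, 57.1 and 218 in vehicle, whose replicate 5 was the highest. ITGB4 lies at chr17:75721328-75757818 on the plus strand, and GALK1, which overlaps it on the opposite strand over 6225 bases, was higher by 0.44 at 6 h and 0.30 at 18 h.

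ITGA3, the most abundant subunit, fell by 0.74 at 18 h (SE 0.10, limma adjusted p = 4.46e-10). Mometasone alone gave 159, 175 and 158 at 18 h, against 308, 307, 228 and 403 in vehicle, with no overlap. Over all backgrounds the ranges were 132 to 203 with mometasone and 194 to 403 without it, and 3 of 4 backgrounds were called. At 6 h the change was -0.18 (adjusted p = 0.10, and 0.0148 with the replicate number as a block). ITGA6 and ITGA7, the other laminin-binding alpha chains, and ITGB1, their partner, were called with none of the agents at any time in the averaged comparisons. The averaged changes of ITGB1 lay between -0.11 and 0.14, and those of ITGA6 between -0.34 and 0.21 with SEs up to 0.21. With the replicate number as a block, however, ITGA6 was called with mometasone at 6 h (-0.23, limma adjusted p = 0.00618) and 18 h (-0.35, 0.000354). In that fit it was also called with indacaterol at 2 h (0.21, 0.0310).

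Among the RGD receptors, ITGA5 changed direction with time. It rose by 0.22 at 2 h (SE 0.06, limma adjusted p = 0.00193) and 0.58 at 6 h (SE 0.06, 4.12e-17), and fell by 0.26 at 18 h (SE 0.06, 0.000387). At 6 h mometasone alone gave 33.2, 45.9, 38.0, 41.4 and 32.6, against 24.1, 29.5, 22.7, 23.0 and 19.99 in vehicle, with no overlap. At 18 h it gave 20.8, 15.1 and 22.2, against 27.3, 22.8, 25.5 and 23.5 in vehicle, all lower. The 2 h call was lost without replicate 4 (adjusted p = 0.0940). In GENCODE 29 antisense genes cover the whole of ITGA5.

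ITGB5, which pairs with ITGAV to bind vitronectin, was at -0.31 at 18 h (limma adjusted p = 0.0432). That call was lost without replicate 2, 3, 4 or 5 and without the filter on low values. ITGB3, the beta chain of the platelet fibrinogen and the vitronectin receptors, rose by 0.33 at 6 h (SE 0.07, adjusted p = 0.000101), with values of 1.17 to 3.49 with mometasone and 1.18 to 2.08 without it. ITGAV was called in no averaged comparison, with changes between -0.10 and 0.23 and SEs up to 0.26.

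**Figure D4:**
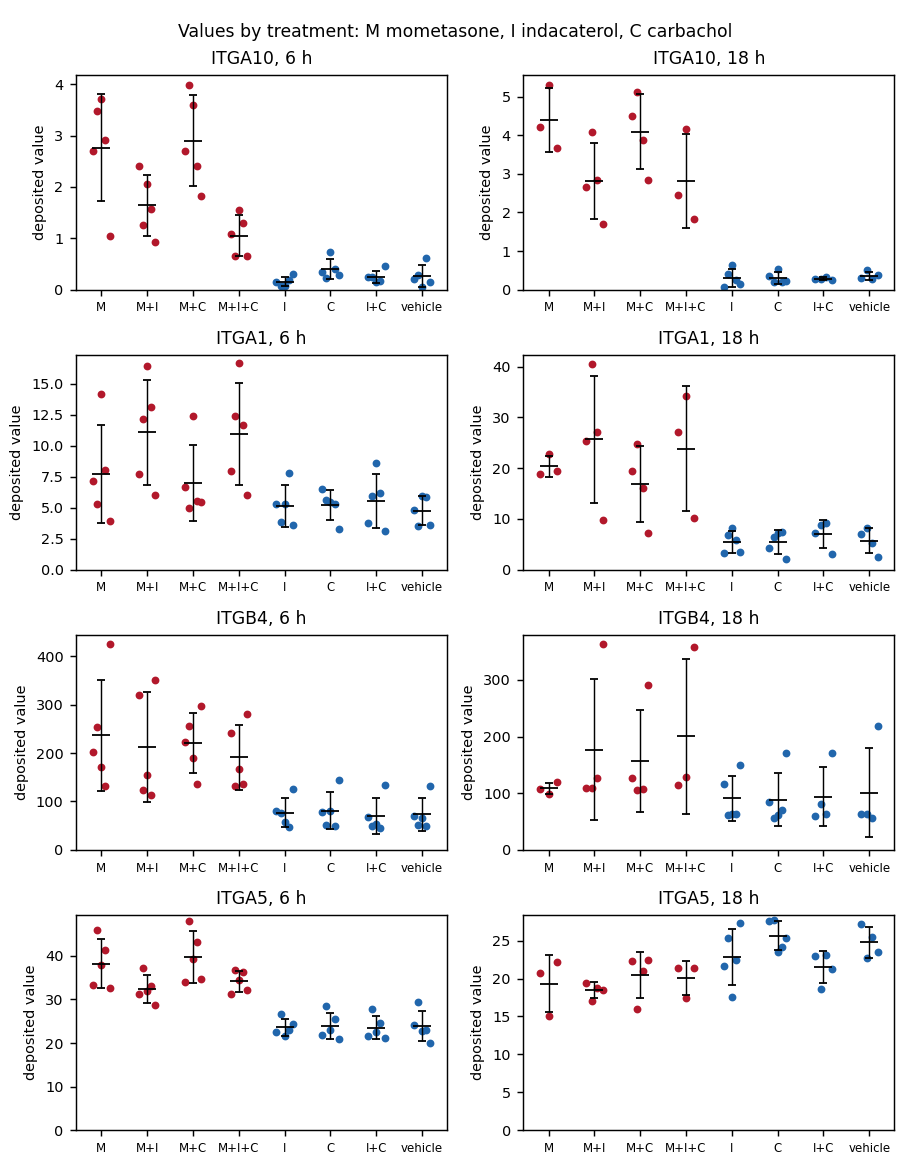
Deposited values of ITGA10, ITGA1, ITGB4 and ITGA5 in every library at 6 h and 18 h (y axis), by treatment (x axis; red with and blue without mometasone; black bars are means ± SD). ITGA10 is apart between red and blue at 18 h, and ITGA5 is higher with mometasone at 6 h and lower at 18 h.

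The LAMA3 and LAMB3 chains of laminin-332 moved oppositely with mometasone. LAMA3, the alpha-3 chain, rose by 0.71 at 6 h (SE 0.08, limma adjusted p = 8.80e-15) and by 0.50 at 18 h (SE 0.09, 5.66e-07). LAMB3, the beta-3 chain, fell by 0.38 (SE 0.10, 0.00164) and 0.58 (SE 0.12, 1.50e-05) at these times.

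At 6 h LAMA3 had 22.5, 21.5, 21.0, 17.3 and 21.6 in mometasone alone, against 11.2, 10.1, 12.1, 10.7 and 14.6 in vehicle. The groups did not overlap. Over all backgrounds at 18 h LAMA3 was 20.7 to 30.1 with mometasone and 12.4 to 19.6 without it, which are apart.

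LAMB3 at 18 h had 3.53, 1.09 and 1.89 in mometasone alone, against 5.85, 3.29, 5.14 and 5.29 in vehicle, a change of -0.95 (SE 0.24, limma adjusted p = 0.00380). The groups overlapped by 1 library each. This comparison with vehicle was not called without replicate 4 (0.0847). At 2 h, where same-numbered libraries of mometasone alone and vehicle deviated together, the LAMA3 change of 0.43 was not called (adjusted p = 0.195) but was called with the replicate number as a block (0.0150).

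LAMB1, beta-1 of many trimers, fell by 0.88 at 18 h (SE 0.10, limma adjusted p = 3.01e-13). Mometasone alone gave 52.1, 39.2 and 49.0, against 74.8, 81.3, 80.1 and 116 in vehicle. Over all backgrounds the ranges were 35.5 to 61.3 with mometasone (median 48.2) and 73.0 to 116 without it (median 82.7), so the groups were apart, and all 4 backgrounds were called. At 6 h the change was -0.14 (adjusted p = 0.218, and 0.00651 with the replicate number as a block).

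LAMA1, the alpha-1 chain typical of embryonic basement membrane, fell by 0.38 at 18 h (SE 0.12, limma adjusted p = 0.0108). It had 0.90, 0.55 and 0.99 in mometasone alone, against 1.37, 1.00, 1.29 and 2.56 in vehicle. The groups were just apart, the averaged change was -0.62 with 0.1 added, and its call was lost without replicate 2 (0.0690). LAMC1, the gamma chain of most laminins, and LAMA4, an alpha chain of vessel walls, were at -0.25 and -0.33 (adjusted p = 0.0369 and 0.0475). Both calls were lost without replicate 2, 3 or 4 and without the filter, that of LAMA4 also without replicate 1 and that of LAMC1 also with each time fitted alone.

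LAMA2, the alpha chain of muscle laminin, was called only against vehicle, at -0.79 (SE 0.26, limma adjusted p = 0.0384). It had 0.07, 0.06 and 0.03 in mometasone alone at 18 h, against 1.13, 0.89, 0.57 and 0.75 in vehicle, which are apart. The averaged change was -0.11 (adjusted p = 0.554). Only 1 of the 4 backgrounds, that of vehicle, was lower, and the changes ran from -0.79 to 0.19. The call against vehicle was lost without replicate 2, 3 or 5 and without the filter. With 0.1 added the change against vehicle was -2.58. LAMB2 and LAMA5, abundant in these cells, were called with no agent, with averaged changes of -0.21 to 0.28 and -0.27 to 0.38. With the replicate number as a block, however, LAMA5 was called with indacaterol at 2 h (0.38, limma adjusted p = 0.00378). In that fit LAMB2 was called with mometasone at 6 h (0.28, 0.0439).

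**Figure D5:**
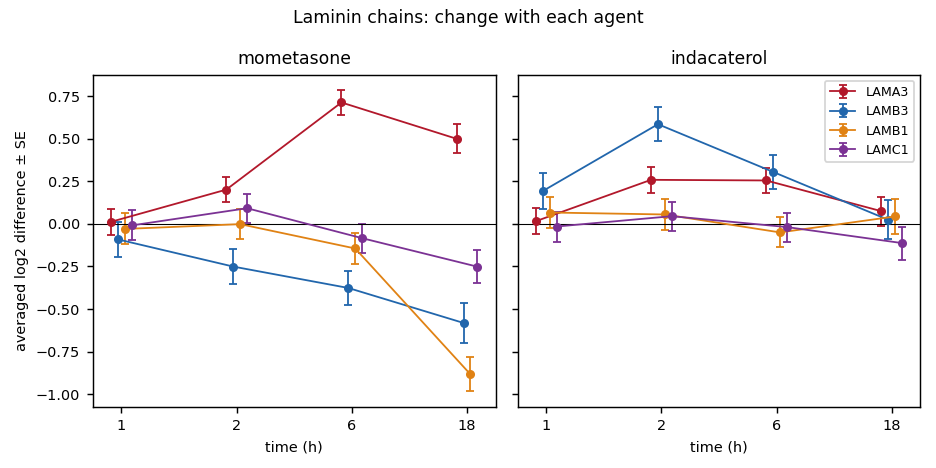
Averaged log2 change ± SE (y axis) of 4 laminin chains by time (x axis) with mometasone (left) and indacaterol (right). With mometasone LAMA3 is above 0 and LAMB3 below it at 6 h and 18 h, and LAMB1 is at -0.88 at 18 h. With indacaterol LAMB3 peaks at 0.58 at 2 h.

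Set against vehicle alone, mometasone by itself called 0, 1, 5 and 7 of the 35 genes at 1, 2, 6 and 18 h, where 0.472%, 1.99%, 9.61% and 9.10% of all genes were called. The gene at 2 h was ITGA5 (0.38, limma adjusted p = 0.0401), whose call was lost without replicate 1, 3, 4 or 5, under scaling by median ratio and with library weights. With the replicate number as a block 2 genes and 3.57% of all genes were called at 2 h. Those at 6 h included ITGA10, ITGB4, LAMA3 and ITGA5, all higher. Those at 18 h included ITGA10 and ITGA1, higher, and LAMB1, ITGA3, LAMB3 and LAMA2, lower.

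The change between 6 h and 18 h was itself tested, a comparison chosen after seeing the data. The averaged mometasone effect at 18 h minus that at 6 h was called for 6 of 35 genes, beside 8.51% of all genes. It was higher at 18 h for ITGA1 (1.01, limma adjusted p = 0.00304) and ITGA10 (0.53, 0.00121). It was lower for ITGA5 (-0.85), LAMB1 (-0.74), ITGA3 (-0.55) and ITGBL1 (-0.51). Those of ITGA1 and ITGA3 were lost without replicate 2 (adjusted p = 0.0527 and 0.0681), that of ITGBL1 without replicate 4 (0.0687) and that of ITGA10 with 0.1 added (0.303).

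In the model used here, indacaterol called fewer of these genes over all times than mometasone, and mainly at 2 h and 6 h. Both held for all genes too. Averaged over its backgrounds it called 0, 3, 6 and 1 of 35 genes at 1, 2, 6 and 18 h, beside 4.51%, 13.5%, 13.1% and 1.60% of all genes, and 8.57% and 17.1% of the 35 were called at 2 and 6 h. The 6 h count was 2 without replicate 4, where 1320 genes in all were called, against 1945 with it. The 18 h count was 7 with library weights, 20% of the 35 beside 9.21% of all genes. At 1 h, 1 gene had an unadjusted p below 0.05. Over all times 8 genes were called, 22.9% of the 35 beside 22.6% of all genes.

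LAMB3 rose most, by 0.58 at 2 h (SE 0.10, limma adjusted p = 1.46e-06). Indacaterol alone at 2 h gave 9.17, 10.0, 6.08, 10.6 and 10.3, against 4.81, 3.82, 3.49, 4.96 and 5.43 in vehicle. The groups were apart, and the change against vehicle was 0.89 (SE 0.20, adjusted p = 0.00122). At 6 h the averaged change was 0.30 (adjusted p = 0.0286), a call lost without replicate 1, 2, 4 or 5 and under scaling by median ratio.

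LAMA3, which rose with mometasone, also rose with indacaterol, by 0.26 at 2 h (SE 0.08, limma adjusted p = 0.00869) and 0.25 at 6 h (SE 0.08, 0.0112). At 2 h it had 22.6, 15.6, 13.4, 12.1 and 16.1 in indacaterol alone, against 12.2, 11.2, 11.3, 7.67 and 14.9 in vehicle, which overlap. The 2 h call was lost without the libraries over 20% mitochondrial RNA (adjusted p = 0.0619), 1 of which is the highest value above, and with each time fitted alone, and the 6 h call without replicate 4 (0.0908). Indacaterol alone against vehicle called 0, 1, 0 and 0 of 35 genes, beside 1.40%, 3.91%, 1.74% and 0.202% of all genes. At 2 h, where same-numbered libraries deviated together, the block called 2, adding LAMA3 (0.44, adjusted p = 0.00611), and 7.35% of all genes.

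Of the 20 integrin subunits tested, 0 rose and 1 fell with indacaterol at 2 h, and 1 rose and 3 fell at 6 h. Of all genes, 13.5% and 13.1% were called at these times. ITGA3 fell by 0.44 at 6 h (SE 0.09, limma adjusted p = 5.72e-05), with 158 to 320 with indacaterol (median 246, n = 20) and 206 to 436 without it (median 346, n = 20). ITGB5 fell by 0.35 (SE 0.11, adjusted p = 0.0163), lost without replicate 4 (0.10). Indacaterol alone at 6 h gave ITGB5 values of 48.7, 47.7, 51.0, 53.0 and 35.3, against 57.5, 83.0, 80.9, 58.6 and 65.6 in vehicle, which are apart, although that comparison alone was not called (adjusted p = 0.326). ITGA5 fell by 0.19 at 2 h (SE 0.06, 0.00856), a call lost without replicate 2 or 3. ITGB3 rose by 0.21 at 6 h (0.0418), lost without replicate 2, 3, 4 or 5 and without the filter.

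ITGA10, the gene with the largest rise on mometasone, fell with indacaterol at 6 h by 0.42 on the log2 scale (SE 0.08, limma adjusted p = 3.51e-05), and by 0.74 with 0.1 added in place of 1. Its means at 6 h were 1.05 ± 0.40 with all 3 agents, 1.64 ± 0.60 with mometasone and indacaterol, 2.90 ± 0.89 with mometasone and carbachol, and 2.77 ± 1.05 with mometasone alone (SD, n = 5 each). Without mometasone they were between 0.16 and 0.40. Adding indacaterol to mometasone with carbachol gave a change of -0.92, which was called, and adding it to mometasone alone gave -0.48, which was not (adjusted p = 0.0957). In the model without a replicate block, the interaction of mometasone and indacaterol at 6 h was -0.57 (SE 0.16, adjusted p = 0.0864). The difference between backgrounds was thus not called in that model.

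ITGBL1, a secreted protein with integrin-beta-like EGF repeats and no integrin subunit, was the 1 gene called with indacaterol at 18 h. It fell by 0.55 (SE 0.10, limma adjusted p = 6.04e-05), and with mometasone by 0.43 (SE 0.10, 0.000210). Its 18 h means were 21.9 ± 3.58 with all 3 agents (n = 3), 20.6 ± 2.67 with mometasone and indacaterol (n = 4), 39.6 ± 2.94 with mometasone alone (n = 3), 35.0 ± 5.82 with indacaterol alone (n = 5) and 43.5 ± 7.91 in vehicle (SD, n = 4). The highest library given mometasone and indacaterol, with or without carbachol, was at 25.7, below the lowest with mometasone alone, 36.2, with indacaterol alone, 28.3, and in vehicle, 31.9. The other groups given carbachol were left out of this comparison of ranges, which was not planned. In the model without a replicate block, the interaction was -0.54 (SE 0.20, unadjusted p = 0.00737, adjusted p = 0.908). FGF14, which overlaps ITGBL1 on the opposite strand, was at -0.27 with mometasone at 18 h.

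The remaining gene called outside the subunits was ITGB3BP, a centromere protein, higher by 0.17 at 18 h with mometasone (limma adjusted p = 0.0113) and not called without replicate 2, 3 or 5 or under another scaling. ITGB1BP1 and ITGB1BP2, cytoplasmic partners of the beta-1 tail, were not called in an averaged comparison. With the replicate number as a block, ITGB1BP1 was called with mometasone at 18 h (-0.14, limma adjusted p = 0.0422) and with indacaterol at 6 h (-0.14, 0.0268).

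Carbachol moved none of these genes past the test. Averaged over its backgrounds, limma called 0 of 35 at each of 1, 2, 6 and 18 h, beside 0.189%, 0.121%, 0% and 0% of all genes, and 0, 1, 2 and 1 had an unadjusted p below 0.05. The averaged changes of the 35 lay between -0.34 and 0.20. Carbachol alone against vehicle also called 0 at each time, beside 0.0809%, 0.0270%, 0% and 0.00674%, with 2, 0, 1 and 0 at an unadjusted p below 0.05.

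In the model used here, no interaction of 2 agents was called for any of the 35 genes by limma. With the replicate number as a block or with library weights, some were called for mometasone with indacaterol, as counted in the last section. In the model used here, the genes at an unadjusted p below 0.05 for mometasone with indacaterol numbered 5, 3, 2 and 3 at 1, 2, 6 and 18 h. At the stricter adjusted p below 0.05, 0 of the 35 were called, beside 0.614%, 1.17%, 0.735% and 0.121% of all genes. For mometasone with carbachol the genes at an unadjusted p below 0.05 numbered 0 at each time, and for indacaterol with carbachol 1, 0, 1 and 0. By the adjusted p, 0% of all genes were called for these 2 interactions, except 0.0202% for the second at 2 h. The share of all genes at an unadjusted p below 0.05 was not computed for any comparison. Vehicle at 2, 6 and 18 h against 1 h also called 0, beside 0.0135%, 0.324% and 0.121% of all genes, with 2, 3 and 2 at an unadjusted p below 0.05.

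Among the proteins that work with integrins inside the cell, 29 adaptor and signalling genes were tested. With mometasone at 6 h 12 rose and 4 fell, where 33.0% of all genes were called, with a median log2 change of 0.17. With indacaterol at 6 h 1 rose and 11 fell, where 13.1% of all genes were called, with a median of -0.18. VCL, vinculin, which links talin to actin, rose by 1.55 with mometasone and fell by 0.71 with indacaterol at 6 h. TNS1, the adhesion adaptor tensin 1, rose by 0.46 with mometasone and fell by 1.26 with indacaterol at 6 h. PTK2B, the kinase PYK2, rose by 1.32 with mometasone at 18 h, when 5 of the 29 rose and 6 fell and 31.5% of all genes were called. The shares over all genes for mometasone at 6 and 18 h also stand beside the counts of the lists that follow.

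Of 16 basement membrane partners and other laminin receptors, 2 rose and 7 fell with mometasone at 18 h, with a median of -0.14, while 3 rose and 2 fell at 6 h. NTN4, netrin-4, which binds laminin gamma chains, fell by 0.77 with mometasone and rose by 0.45 with indacaterol at 6 h. FBLN1, fibulin-1, rose by 0.76 at 18 h and NID2, nidogen-2, a laminin-binding linker, rose by 0.72 at 6 h with mometasone. Of 8 hemidesmosome and tetraspanin partners, 1 rose and 4 fell at 18 h. PLEC, plectin, the cytoplasmic partner of ITGB4, rose by 0.81 at 6 h, and DST, which encodes the hemidesmosomal BPAG1, and CD9 fell by 0.62 and 0.57 at 18 h.

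Of 14 tested soluble and fibrillar ligands, 5 rose and 6 fell with mometasone at 18 h, with a median of -0.04. CCN3 fell by 2.00 at 18 h and CCN1 by 1.25 at 6 h, while CCN2 rose by 1.51 at 2 h, and all 3 encode matricellular proteins that bind integrins. CCN2 was also higher by 0.72 with carbachol at 1 h, the 1 call with carbachol in these lists. Of 9 genes of latent TGF-beta, which ITGAV integrins activate, 3 rose and 1 fell at 18 h. TGFBR2 rose by 1.48, LTBP1 by 1.39 and TGFB2 fell by 0.66. No p-value is given for any list.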

How the data were processed

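Libraries were made with an Illumina TruSeq kit from total RNA of BEAS-2B cells, per the labels' protocols, and STAR 2.4.2a, bcl2fastq 2.17.1.14 and the build GRCh38 are listed by the submitters' processing notes. They state no quantifier, annotation or strand setting. The values are a normalised signal per gene as deposited by the authors, who call them TPM; their columns do not have the fixed sum of TPM, so they were treated neither as TPM nor as counts, although the tests had been planned for TPM. Of 160 value columns, 10 were not used: 4 marked as excluded by the authors and 6 headed 8 h, a time in none of the labels. The headers' treatment, replicate number and time tied each column to a sample. No 2 columns held identical values.

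Genes with 1 or more in 5 or more libraries went, as log2(value + 1), into a limma model (limma 3.58.1, R 4.3.3, data.table version 1.17.8) holding a mean per group (32 groups, leaving 118 degrees of freedom) and a trended prior variance. All adjusted p-values, also those given without the tool's name, are limma's with Benjamini-Hochberg adjustment over the 14827 genes within a comparison and time. The scripts were tested on simulated data. Gene positions are from GENCODE 29, promoters from RefSeq; matplotlib 3.10.9 with pandas 2.3.3 drew the figures. The members, lists and markers were chosen with earlier results of these data known. Of the called members, the 12 with the largest averaged change are described most fully, together with the other 5, except 1 gene that is not reported here, and of each further list the 3 with the largest change. ITGA6, ITGA7, ITGAV, ITGB1, LAMA5 and LAMB2 are described for their level and LAMA2 because its values were seen.

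Same-numbered libraries were taken as paired where the deviations of every pair from their group means correlated above 0.1. The labels give only the numbers, so any pairing comes from the data. Against vehicle this held for mometasone at 1 and 2 h, indacaterol at 2 and 18 h and carbachol at 2, 6 and 18 h, and among averaged comparisons for carbachol at 2 h. Alternatives tried were a pseudocount of 0.1, no filter, scaling by median ratio, library weights, the replicate number as a block, leaving out libraries over 20% mitochondrial RNA or each replicate number, and each time fitted alone.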

Additional observations from a re-analysis of the deposited data

Results flagged for a closer look

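Among the 18 groups of 4 or 5 libraries examined, 3 held a library far from the others of its group, where chance gives about 1 in 20. ITGB4 was 132 in 1 vehicle library at 6 h, beside 48.9 to 69.7 in the other 4. LAMB1 was 116 in 1 vehicle library at 18 h, beside 74.8 to 81.3 in the other 3. Both libraries are numbered 5. LAMA3 was 17.3 in 1 mometasone library at 6 h, the lowest, beside 21.0 to 22.5 in the other 4.

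The averaged mometasone effect differed between 18 h and 6 h for 6 genes by limma's test of that difference. On the log2 scale, 18 h minus 6 h, the difference was 1.01 for ITGA1, 0.53 for ITGA10, -0.55 for ITGA3, -0.85 for ITGA5, -0.51 for ITGBL1 and -0.74 for LAMB1.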

How the results depend on the processing

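Under 12 alternatives no called change turned its direction. Of 57 single calls, the replicate block lost 0, a pseudocount of 0.1 lost 1, no filter 5, scaling by median ratio 3, library weights 1 and leaving out libraries over 20% mitochondrial RNA 1. Leaving out replicate 1 to 5 lost 3, 14, 10, 14 and 6, and each time fitted alone 2 of 51. Of the counts of genes called over all times, that of averaged indacaterol (8) became 16 with the replicate block and 15 with library weights. Indacaterol alone (1) became 4 and 3, and 1 to 2 without a replicate number. The interaction of mometasone and indacaterol (0) became 14 and 14, 1 without the libraries over 20% mitochondrial RNA, and 0 to 1 without a replicate number. Vehicle over time (0) became 7 with library weights. By time, averaged mometasone (3 at 2 h) became 9 with the replicate block, 25.7% of the 35 beside 2378 of 14827 genes. With library weights it became 5, 14.3% beside 11.6% of all genes. At 6 h (8) it became 12 with the block, 34.3% beside 47.6%, and 13 with library weights, 37.1% beside 44.4%. Both 6 h shares were below the background. At 18 h (16) it became 18 in both fits, 51.4% beside 44.9% with the block and 48.1% with library weights. Averaged indacaterol (3 at 2 h) became 8 with the replicate block, 22.9% beside 22.7% of all genes, and 6 with library weights, 17.1% beside 19.7%. At 6 h (6) it became 12, 34.3% beside 24.8%, and 9, 25.7% beside 23.4%. At 18 h (1) it became 3, 8.57% beside 4.98%, and 7, 20% beside 9.21%. The mometasone effect at 18 h against 6 h (6) became 10 with the replicate block and 17 with library weights, and could not be fitted with each time alone. The averaged mometasone count (17) was 12 to 16 without a replicate number. Shares of all genes under these alternatives were not computed for counts over all times, for interactions or for 18 h against 6 h. Those counts therefore show only a dependence on the model and libraries used. The causes were not tested. In most of these comparisons same-numbered libraries were not paired by the rule used, which fails where any pair correlates at 0.1 or less. The labels give only the number, yet it went with much of the within-group variance of some genes, as given above. The median averaged mometasone change over all genes, at 6 h and at 18 h, moved by less than 0.1 (log2) under each alternative. For the other comparisons and times this was not computed. Read depth is unknown, so the lowest genes, such as ITGA10, carry a counting error that was not measured.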
